A study of Drosophila melanogaster with 6 samples.

Results

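The nuclear genes for proteins of the mitochondrial ribosome were examined in S2R+ cells, a permanent line of Drosophila melanogaster that was derived from embryos and has features of blood cells. Members were all genes whose name begins with mRpL (large subunit) or mRpS (small subunit), which gave 73 of the 23932 genes in the deposited tables, 47 in the large and 26 in the small subunit. RNA was compared between 3 libraries of cells treated with dsRNA that targets Fibrillarin (labelled dsFib), the enzyme that methylates RNA in box C/D snoRNA particles, and 3 libraries of cells treated with dsRNA to lacZ, a bacterial gene absent from the fly (dsLacZ), as the interference control. All 6 libraries came from total RNA depleted of ribosomal RNA, with added oligonucleotides for the 5S and 2S species, and were made by TGIRT-seq, in which a heat-stable reverse transcriptase of a group II intron makes the cDNA. Separate cultures are not named in the labels, and p-values here cover the spread among libraries, part or all of which could be technical.

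The mitochondrial ribosome translates the few mRNAs of the mitochondrial genome, which code for core subunits of the respiratory chain and ATP synthase. Its rRNAs are made inside the organelle, whereas its proteins are encoded in the nucleus, made by cytosolic ribosomes and imported. Some of these proteins have counterparts in bacterial ribosomes, and others were acquired by the mitochondrial lineage. By the usual numbering, large subunit proteins up to number 36 and small subunit proteins up to number 21 carry the numbers of bacterial proteins, and most higher numbers mark proteins specific to mitochondria. Exceptions are mRpL47, mRpL55, mRpS24 and mRpS28, whose mammalian counterparts are related to bacterial proteins, so the splits below go by number alone. Roles given here are those known from bacterial and mammalian ribosomes. The mammalian counterparts of mRpS18A and mRpS30 lie in the large subunit, but both genes are counted here by their names.

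The libraries held 11695250 to 15172052 counts. The targeted gene went against its label: Fib had 1312, 954.9 and 994.3 TMM-scaled CPM (the count relative to the library's total, after TMM scaling between libraries) in the libraries labelled dsFib, against 213.9, 257.4 and 227.4 in dsLacZ, a log2 fold change of 2.22 (standard error, SE, 0.15, edgeR adjusted p = 0.00103). Whether labels were exchanged or reads of the dsRNA were counted as Fib was not tested. Every direction below is therefore that of the libraries labelled dsFib over dsLacZ. Of 9 markers of plasmatocytes, the blood cell type that S2R+ cells resemble, 7 averaged at least 1 CPM, and NimC1 and eater less. Summed over all 9, the level was 435 to 527 CPM in dsFib and 439 to 531 CPM in dsLacZ. Within that sum crq was lower, at 218 to 252 CPM in dsFib and 267 to 292 CPM in dsLacZ, and Hml higher, at 9.36 to 14.8 CPM in dsFib and 3.00 to 8.22 CPM in dsLacZ. Of the other types, the fat body genes Lsp1alpha and Fbp1 were at 0 and Lsp2 nearly so. Only 1 of 4 neuronal, 1 of 4 muscle and 1 of 3 germ line markers averaged at least 1 CPM. The neuronal one, elav, stood at 24.3 to 27.1 CPM in dsFib and 24.99 to 33.6 CPM in dsLacZ. The muscle one, Mlc2, stood at 1.19 to 2.14 CPM in dsFib and 0.734 to 2.13 CPM in dsLacZ. The germ line one, bam, stood at 9.12 to 15.03 CPM in dsFib and 5.63 to 11.9 CPM in dsLacZ. The part of these markers in the results was not tested. One control library stood apart. Nuclear tRNA made up 18.3% of dsLacZ replicate 2 and 10.8% to 15.3% of the other 5 libraries. Its member levels also scattered most, with an SD of 0.35 around the gene means on the log2 scale, against 0.19 to 0.25 in the other 5.

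Messenger RNAs of the mitochondrial ribosome were present at modest levels in S2R+ cells, far below those of cytosolic ribosomal proteins. On the deposited TPM scale, which corrects for transcript length, the tested members averaged between 1.14 and 36.4 TPM over the 6 libraries. The median was 8.67 TPM for the large and 11.3 TPM for the small subunit. The median of all tested members was 9.38 TPM, against 661 TPM for the cytosolic ribosomal protein genes, a 70.5-fold lower level. Only 8 members exceeded 20 TPM. The median level of large subunit proteins with bacterial numbers was 8.51 TPM and that of higher-numbered ones 9.12 TPM, and in the small subunit these medians were 10.1 and 11.3 TPM.

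The most abundant members were 3 of the small subunit. The mitochondrion-specific mRpS35 had 32.6, 33.9 and 35.5 TPM in dsFib and 46.7, 28.7 and 40.7 TPM in dsLacZ. The mitochondrion-specific mRpS22 averaged 34.1 ± 1.57 TPM in dsFib and 34.7 ± 4.01 TPM in dsLacZ (SD, n = 3 each). The gene mRpS5, for a protein at the mRNA entry channel, averaged 31.4 ± 1.64 TPM in dsFib and 33.3 ± 4.84 TPM in dsLacZ (SD, n = 3 each). The ranges of these 3 levels overlapped each other, although within every library mRpS35 lay above mRpS5. In the large subunit the order began with mRpL10, which anchors the stalk that recruits translation factors, at 29.1 ± 5.51 TPM over the 6 libraries (SD). It was followed by mRpL23, at the mouth of the exit tunnel, with 28.6 ± 6.58 TPM and by mRpL14, on the face toward the small subunit, with 27.4 ± 3.89 TPM (SD, n = 6 each). These neighbours in the order did not differ beyond their spread.

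The lowest tested members were mRpS6, a platform protein, at 1.14 ± 0.64 TPM, mRpL35, an interior large subunit protein, at 2.31 ± 1.09 TPM, and mRpL11, at the stalk base, at 2.91 ± 1.25 TPM (SD, n = 6 each). The lowest member of the small subunit after mRpS6 was mRpS31, which is mitochondrion-specific, at 5.93 ± 0.60 TPM (SD, n = 6). The member mRpL53 had 0 counts in all 6 libraries. With counting error only, and each count taken as a separate read, this allows up to 3 counts in each. The filter on low counts left out mRpL53 alone. Its gene lies at positions 13954195 to 13955664 on the forward strand of chromosome arm 2R (dm6), and all 829 bases of its exons lie within exons of CG33155 on the same strand. CG33155 had 4, 5 and 0 counts in dsFib and 0, 10 and 0 counts in dsLacZ. Reads of these genes cannot be told apart by position, so no level of mRpL53 can be given.

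**Figure D1:**
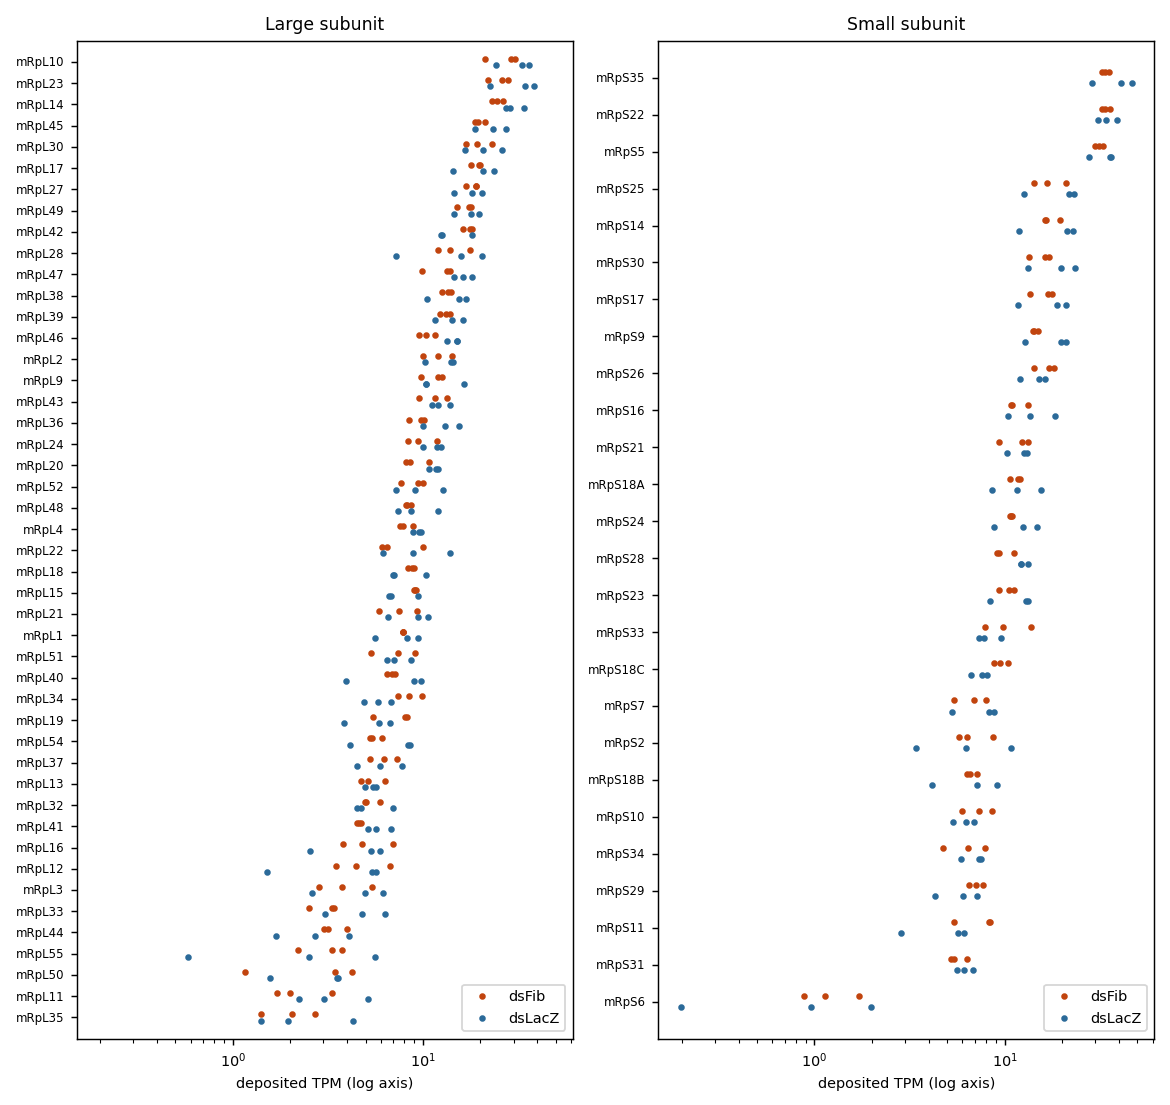
Deposited TPM (log axis) of the tested mitochondrial ribosomal protein genes, large and small subunit in separate panels and genes ordered by their mean, with 3 points for dsFib and 3 for dsLacZ per gene. mRpS35, mRpS22 and mRpS5 lead the small subunit at 27.7 TPM or more in every library, mRpL10, mRpL23 and mRpL14 lead the large subunit, and mRpS6 lies lowest at 1.14 TPM on average.

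In the comparison of the libraries labelled dsFib with dsLacZ, no mitochondrial ribosomal protein gene of either subunit passed the test. Of the 72 tested members 0 passed by edgeR's quasi-likelihood test at an adjusted p of 0.05, where 0.903% of the 8302 genes tested did. The smallest adjusted p among the members was 0.178. In bulk RNA, fewer cells of a type and less RNA per cell cannot be told apart. DESeq2, which called 3.86% of the genes with an adjusted p, and limma-voom, which called 0.807%, also called 0 members. At an unadjusted p under 0.05 edgeR gave 6 members, all higher in dsFib, which is 8.33% of the members, beside 7.67% of all genes higher. None was lower at that level, where 8.26% of all genes were lower, and 15.9% of all genes passed it in either direction. The groups did not overlap in 9 members (12.5%), against 23.2% of all genes. Of these 9, 6 were higher in dsFib, where 11% of all genes were, and 3 were lower, where 12.1% of all genes were.

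Member fold changes centred near 0. Between dsFib and dsLacZ, 40 members had a log2 fold change above 0 and 32 below 0, with a median of 0.01, quartiles of -0.13 and 0.16 and a range of -0.46 to 0.72. The median of all genes tested was -0.01. The median size of the change, without its sign, was 0.14 for the members and 0.19 for all genes. Only the estimates of mRpS11 and mRpL34 exceeded 1.5-fold, which is 2 of 72, where 10.3% of all genes did. The 95% interval of the log2 fold change lay within 1.5-fold in either direction for 40 members (55.6%), against 46.6% of all genes, and within 2-fold for 64 members (88.9%), against 75.4% of all genes. The other 8, mRpL34, mRpL33, mRpL11, mRpL12, mRpL55, mRpL50, mRpS11 and mRpS6, had intervals reaching past 2-fold, and 6 of them averaged under 100 counts per library. The median coefficient of variation of a member was 12.5% in dsFib and 15.6% in dsLacZ. Counting alone gave a median of 6.51%, with each count taken as a separate read. Counts of some low members, such as mRpL34 and mRpL33, were even in every library, so fragments may have been counted more than once. The part from counting may then be larger than 6.51%.

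**Figure D2:**
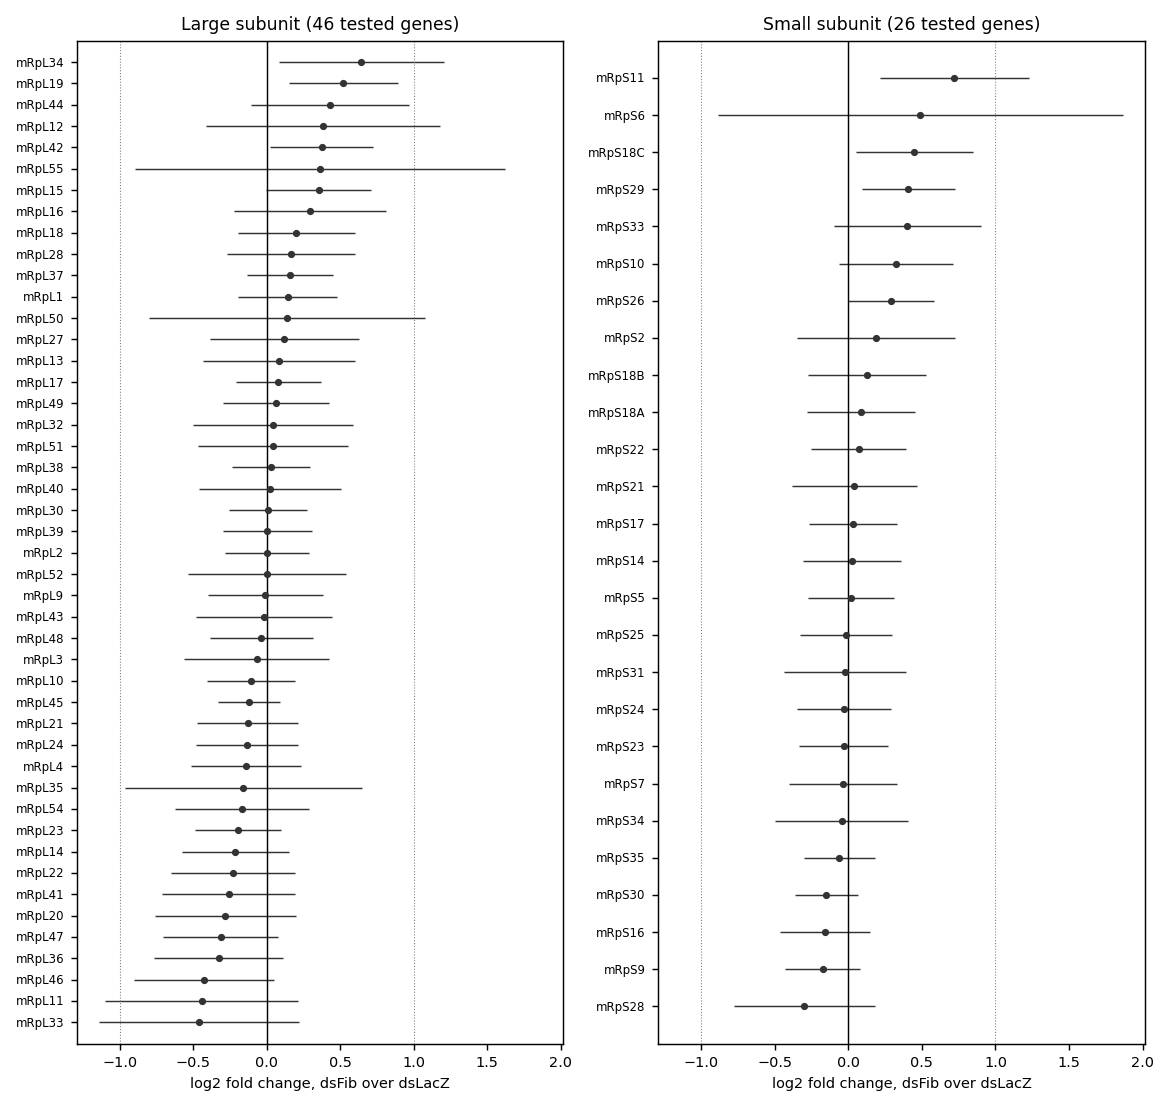
Log2 fold change, dsFib over dsLacZ, of each tested member by edgeR, with its 95% interval, large and small subunit in separate panels. Dotted lines mark 2-fold in either direction; most estimates lie close to 0, from -0.46 to 0.72, and none passed the adjusted threshold.

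In the large subunit, 25 members had values above 0 and 21 below 0, around a median of 0.003 for the log2 fold change between dsFib and dsLacZ. Among those with bacterial numbers the split was 14 above and 14 below, and among the 18 tested higher-numbered ones it was 11 above and 7 below, with medians of -0.004 and 0.01. The smallest p belonged to mRpL19, for a protein that contacts the small subunit across the subunit interface, encoded on the forward strand of chromosome arm 3R at positions 8674109 to 8675196 (dm6). Its TMM-scaled level was 22.1, 19.5 and 15.6 CPM in dsFib, against 13.6, 12.6 and 13.6 CPM in dsLacZ. All 3 dsFib libraries lay above all 3 dsLacZ libraries, with replicate 3 nearest to them. The log2 fold change was 0.52 (SE 0.16, edgeR adjusted p = 0.184).

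The largest estimate of the large subunit belonged to mRpL34, a small basic protein buried in rRNA. It had 8.49, 6.26 and 6.64 CPM in dsFib, against 3.65, 5.04 and 4.97 CPM in dsLacZ. The groups did not overlap at these low levels, which rest on a mean of 76 counts per library, and the log2 fold change was 0.64 (SE 0.25, edgeR adjusted p = 0.252). The mitochondrion-specific mRpL42 had 28.5, 23.9 and 26.7 CPM in dsFib, against 20.9, 23.3 and 16.8 CPM in dsLacZ. Its groups were separated by less than 1 CPM, and the log2 fold change was 0.38 (SE 0.15, edgeR adjusted p = 0.281). The estimate of mRpL44, for a protein related to ribonuclease III, was 0.43 (SE 0.24) and that of mRpL15, for a core rRNA-binding protein, 0.35 (SE 0.16), with edgeR adjusted p-values of 0.416 and 0.315.

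The lowest estimates of the large subunit were those of mRpL33, mRpL11 and mRpL46. Levels of mRpL33, for a small protein near the exit site for tRNA, were 2.30, 2.68 and 3.18 CPM in dsFib, against 4.24, 3.36 and 3.69 CPM in dsLacZ. The groups did not overlap but were close, and the log2 fold change was -0.46 (SE 0.30, edgeR adjusted p = 0.494). The stalk base gene mRpL11 had a log2 fold change of -0.44 (SE 0.29, edgeR adjusted p = 0.499), and its levels overlapped. Levels of mRpL46, for a mitochondrion-specific protein of the central protuberance, were 23.0, 23.8 and 26.2 CPM in dsFib, against 23.7, 43.9 and 30.9 CPM in dsLacZ. The spread lay within dsLacZ, where replicate 2 was highest, and the log2 fold change was -0.43 (SE 0.21, edgeR adjusted p = 0.358). Besides mRpL33, the members lower in dsFib without overlap by CPM were mRpL41 and mRpL45. Levels of mRpL41 were 7.25, 6.41 and 7.33 CPM in dsFib and 7.89, 9.74 and 7.53 CPM in dsLacZ. Those of mRpL45 were 65.7, 61.4 and 65.4 CPM in dsFib and 67.7, 75.8 and 65.9 CPM in dsLacZ. Gaps between these groups were small, and neither gene passed the test at an unadjusted p of 0.05.

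By position in the large subunit, no gene of any region passed the test. The regional lists, here and for the small subunit, were made after the values were seen and may leave out proteins of a region. Of the stalk genes, mRpL10, mRpL11 and mRpL12 had log2 fold changes of -0.11, -0.44 and 0.38 between dsFib and dsLacZ. Of 5 proteins near the peptidyl transferase centre (mRpL2, mRpL3, mRpL4, mRpL16 and mRpL27), where peptide bonds are made, the range was -0.14 to 0.29 and the median 0.002. Around the exit tunnel, through which the nascent chain leaves, mRpL17 was at 0.08, and mRpL22, mRpL23, mRpL24 and mRpL45, a mitochondrion-specific protein at the tunnel mouth, were between -0.23 and -0.12. In the central protuberance (mRpL18, mRpL38, mRpL40, mRpL46 and mRpL48), 3 were above 0 and 2 below, with a median of 0.02. The value for mRpL1, of the mobile arm through which spent tRNA leaves, was 0.14. The smallest edgeR adjusted p in any of these groups was 0.358.

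In the small subunit, 15 members had values above 0 and 11 below 0. Their median was 0.03 for the log2 fold change between dsFib and dsLacZ, which turned to -0.02 where libraries were scaled by total counts alone. With that scaling the median of all genes tested also moved down, from -0.01 to -0.05. Of the 14 small subunit members with bacterial numbers, 11 were above 0 and 3 below, with a median of 0.06. Of the 12 higher-numbered ones, 4 were above 0 and 8 below, with a median of -0.03. The smallest p of all members belonged to mRpS11, for a platform protein that lines the mRNA exit channel, at positions 17072732 to 17073795 on the forward strand of chromosome arm 3R (dm6). Its TMM-scaled level was 16.1, 13.7 and 10.8 CPM in dsFib, against 8.04, 6.55 and 9.95 CPM in dsLacZ. Replicate 3 of dsFib lay less than 1 CPM above replicate 3 of dsLacZ, and the other 2 dsFib libraries lay clearly higher. The log2 fold change was 0.72 (SE 0.22, 95% interval 0.21 to 1.23, edgeR adjusted p = 0.178; DESeq2 adjusted p = 0.0778). The deposited TPM does not carry the TMM scaling between libraries that was used for these CPM values. On that TPM scale the groups overlapped, with 8.40, 8.30 and 5.40 TPM in dsFib against 5.71, 2.84 and 6.14 TPM in dsLacZ. The TPM of mRpL19, mRpL42 and mRpS29 overlapped too, while that of mRpL34 and mRpS18C did not.

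The gene mRpS29, for a GTP-binding protein of the small subunit head also known as DAP3 in mammals, had 24.8, 23.3 and 30.4 CPM in dsFib, against 20.1, 19.7 and 19.4 CPM in dsLacZ. The dsLacZ libraries were nearly equal and all dsFib libraries lay above them, and the log2 fold change was 0.41 (SE 0.14, edgeR adjusted p = 0.211). Levels of mRpS18C, which encodes a platform protein, were 12.2, 12.5 and 13.8 CPM in dsFib, against 8.26, 11.1 and 8.95 CPM in dsLacZ, with a log2 fold change of 0.45 (SE 0.17, edgeR adjusted p = 0.260). Again the groups did not overlap. The related genes mRpS18A and mRpS18B had log2 fold changes of 0.08 (SE 0.16) and 0.13 (SE 0.18). The mitochondrion-specific mRpS26 had 31.1, 34.1 and 38.8 CPM in dsFib and 26.0, 31.4 and 28.0 CPM in dsLacZ, with the groups overlapping and a log2 fold change of 0.29 (SE 0.13, edgeR adjusted p = 0.322). The head gene mRpS10 was at 0.32 (SE 0.17, edgeR adjusted p = 0.395).

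**Figure D3:**
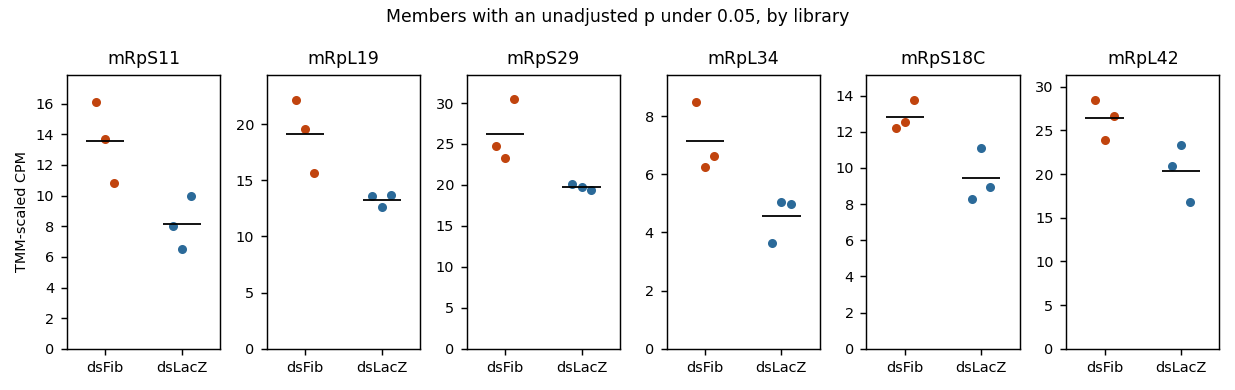
TMM-scaled CPM per library of the 6 members with an unadjusted edgeR p under 0.05, dsFib left and dsLacZ right in each panel, with one point per library (replicates 1 to 3 from left to right), a line at the group mean and each axis starting at 0. In all 6 panels every dsFib point lies above every dsLacZ point, by less than 1 CPM for mRpS11 and mRpL42.

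Below 0, the estimates of the small subunit were smaller. The lowest were mRpS28 at -0.30 (SE 0.21), mRpS9, whose tail reaches toward the tRNA in the peptidyl site, at -0.18 (SE 0.11), and mRpS16, a body protein, at -0.16 (SE 0.13). Their edgeR adjusted p-values were 0.536, 0.477 and 0.623. For mRpS28, dsLacZ replicate 2 was again high, at 29.0 CPM, while the 3 dsFib libraries were at 17.1, 17.7 and 17.3 CPM and the other dsLacZ libraries at 16.3 and 18.9 CPM. The 3 most abundant small subunit genes differed little, with log2 fold changes of -0.06 for mRpS35, 0.07 for mRpS22 and 0.02 for mRpS5. The value for mRpS6 was 0.49 (SE 0.60, edgeR adjusted p = 0.744), with 1.24, 2.09 and 1.66 CPM in dsFib and 2.05, 0.336 and 1.14 CPM in dsLacZ, with the dsLacZ libraries spread more widely than the dsFib ones.

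By position in the small subunit, 4 platform genes (mRpS6, mRpS11, mRpS18C and mRpS21) all had values above 0, and 0 passed the test. Of the tested small subunit members 57.7% lay above 0, and of all genes tested 48.3%. The median log2 fold change of these 4 genes between dsFib and dsLacZ was 0.47, with a range of 0.04 to 0.72. That median rested partly on mRpS6, at 0.49 (SE 0.60, mean of 19 counts per library), and mRpS21 was at 0.04 (SE 0.19). These genes were grouped after their values were seen. The counterpart of S15 encoded by bonsai, which also belongs to the platform, was at -0.15 (SE 0.12). The platform carries the mRNA exit side of the subunit. Of 5 head genes listed here (mRpS7, mRpS9, mRpS10, mRpS14 and mRpS29), which are not all genes of the head, 3 were above 0 and 2 below, with a median of 0.02. The body genes mRpS16 and mRpS17 were at -0.16 and 0.03.

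Summed over its genes, each subunit took overlapping shares of the counts in both groups. The large subunit took 0.0940%, 0.0999% and 0.0969% of all counts in dsFib, against 0.105%, 0.0941% and 0.102% in dsLacZ, or 0.0969% ± 0.00294 in dsFib and 0.101% ± 0.00585 in dsLacZ (SD, n = 3 each). The small subunit took 0.0779%, 0.0798% and 0.0834% in dsFib, against 0.0861%, 0.0745% and 0.0829% in dsLacZ, or 0.0804% ± 0.00282 and 0.0812% ± 0.00601 (SD, n = 3 each, dsFib and dsLacZ). In both subunits the dsFib libraries lay within or at the edge of the dsLacZ range, and dsLacZ replicate 2 was the lowest control. As a share of counts outside the small RNA classes it was the highest control in both, at 0.183% for the large and 0.145% for the small subunit, and the groups overlapped again. The log2 ratio of large to small subunit counts, which does not depend on how a library is scaled, was 0.27 ± 0.05 in dsFib and 0.31 ± 0.02 in dsLacZ (SD, n = 3 each), and the groups overlapped. From the deposited TPM it was 0.49, 0.49 and 0.45 in dsFib, against 0.51, 0.59 and 0.51 in dsLacZ, and the groups did not overlap. No test was made on these sums.

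RNA of the mitochondrial genome, the template and core of the same ribosome, was read beside these sums. The 13 mitochondrial mRNAs together took 1.79%, 1.77% and 1.75% of all counts in dsFib, against 2.28%, 2.16% and 2.32% in dsLacZ, and the groups did not overlap. Mitochondrial rRNA took 6.58%, 5.20% and 5.84% in dsFib, against 5.36%, 7.80% and 7.85% in dsLacZ, and the groups overlapped.

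**Figure D4:**
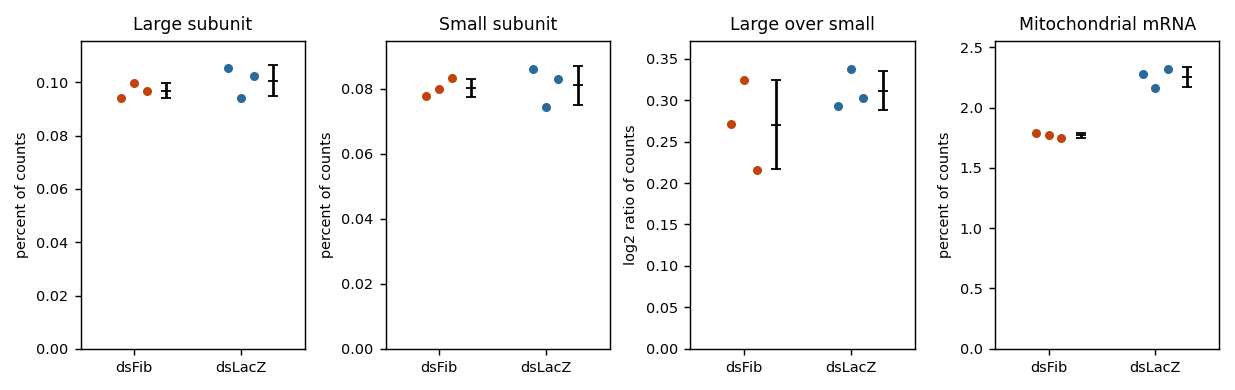
Share of all counts in percent for the large subunit genes, the small subunit genes and the 13 mitochondrial mRNAs, and the log2 ratio of large to small subunit counts, with one point per library, dsFib left and dsLacZ right, and mean ± SD beside them. The groups overlap for both subunits, while the mitochondrial mRNA share is 1.75% to 1.79% in dsFib and 2.16% to 2.32% in dsLacZ.

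Of the genes of the same pathway outside the named members, 60 of 65 listed ones were tested, 24 had values above 0 and 36 below 0, and 0 passed by edgeR. With dsLacZ replicate 1 left out 2 passed, where 113 of 8513 genes in all did. With dsLacZ replicate 2 left out 2 passed, where 310 of 8539 genes in all did. The ribosomal proteins under other names, tko (bacterial S12, at the decoding centre) and bonsai (bacterial S15), had log2 fold changes of 0.12 and -0.15 between dsFib and dsLacZ. Of 11 tested translation factors, 4 were above and 7 below 0 with a median of -0.13. The initiation factor gene mIF2 was at -0.47 (SE 0.20, edgeR adjusted p = 0.307). Of 17 tested genes of aminoacyl-tRNA synthetases and the amidotransferase, which charge mitochondrial tRNAs, 7 were above and 10 below 0 with a median of -0.07. LeuRS-m, for the leucyl-tRNA synthetase, was at 0.26 (SE 0.11, edgeR adjusted p = 0.293).

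Of 15 tested genes of mitochondrial transcription and RNA processing, 10 were above and 5 below 0, with a median of 0.10. RNaseZ, which trims the 3′ ends of tRNA precursors in nucleus and mitochondrion, had 100.9, 93.4 and 105.6 CPM in dsFib, against 69.2, 73.2 and 71.7 CPM in dsLacZ. The groups lay well apart, and the log2 fold change of 0.49 (SE 0.09) missed the edgeR threshold with an adjusted p of 0.0527 but passed with DESeq2, at 0.00342, and with edgeR without dsLacZ replicate 2, at 0.0261. The RNA-binding protein gene Lrpprc2 was at -0.25 (SE 0.10, edgeR adjusted p = 0.291).

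Of the 13 mitochondrial mRNAs, 11 had values below 0, with a median of -0.31, and 8 of them had an unadjusted p under 0.05, a level at which 8.26% of all genes tested were lower. The complex I subunit mRNA mt:ND1 had 880, 847 and 879 CPM in dsFib, against 1230, 1733 and 1406 CPM in dsLacZ. All dsFib libraries lay below all dsLacZ libraries, and the log2 fold change was -0.75 (SE 0.14, edgeR adjusted p = 0.0546, DESeq2 adjusted p = 1.7e-04). Without dsLacZ replicate 1 or 2 it passed by edgeR as well, with adjusted p-values of 0.0292 and 0.0126. These mRNAs are transcribed as long precursors and are not independent of each other. The rRNAs of the large and small mitochondrial subunits, 2 genes, had a median of -0.24.

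The cytosolic ribosomal protein genes, the set most like the members, were taken by name alone, so RpLP0-like and RpL24-like were among them. Of 85 tested genes 75 were above 0, where 48.3% of all genes tested were. Their median log2 fold change was 0.25 between dsFib and dsLacZ. One, RpL17, passed by edgeR, which called 0.903% of all genes. DESeq2 called 14, beside 3.86% of all genes, and limma-voom 2, beside 0.807%. With edgeR 7 passed without dsLacZ replicate 2, where 310 of 8539 genes in all did, and 0 without any other single library. No test was made of the difference between both sets of ribosomal protein genes.

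**Figure D5:**
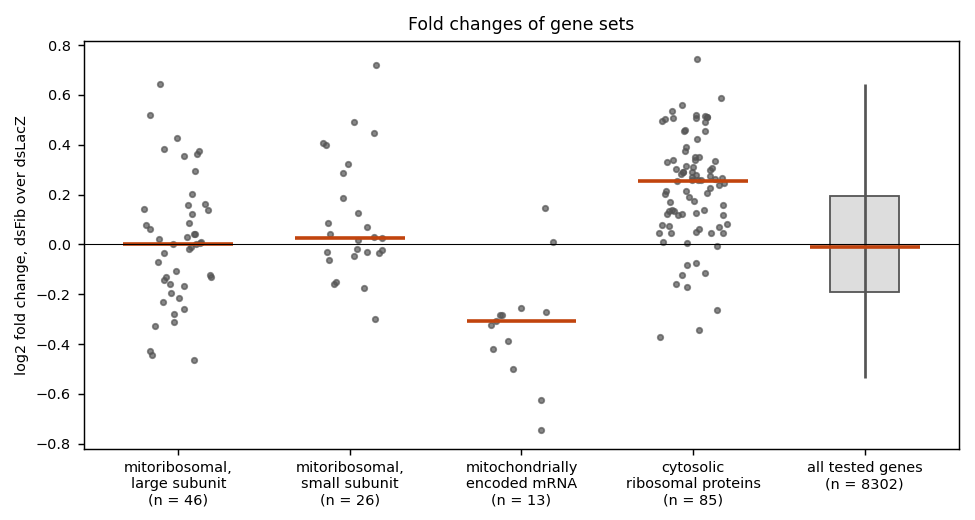
Log2 fold changes, dsFib over dsLacZ, of the genes in each list, one point per gene, with the list median as a red line; for all tested genes a box gives the quartiles and a line the 5th to 95th percentiles. The medians are 0.003 for the large and 0.03 for the small subunit, 0.25 for cytosolic ribosomal protein genes and -0.31 for mitochondrial mRNAs.

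The members shared a compact gene structure. Annotated exons covered a median of 783 bases (327 to 2078), against 2176 bases in the 6963 other tested protein-coding genes, with a median of 2 exons against 4 and 1 annotated transcript against 2. Both subunits were alike in length, with medians of 790 bases in the large and 756 bases in the small subunit. The genes were spread over the genome, with 12 on chromosome arm 2L, 12 on 2R, 17 on 3L, 21 on 3R and 11 on X. On the same strand, no member held another gene in an intron, where 617 of the 6963 other genes did. None lay in an intron of a host gene on its strand, which was also rare in the other genes (95 of 6963). Nesting on opposite strands was not examined.

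Many members sat head to head with a neighbour. A protein-coding gene on the opposite strand started within 500 bases of the member's start in 51 members (69.9%), against 38.6% of the other genes, and within 100 bases in 17 members (23.3%), against 8.72%. This held alike for the large (70.2%) and small (69.2%) subunit. Such neighbours included Taz, which remodels cardiolipin, 20 bases from mRpL18, and ATPsynD of the ATP synthase, 95 bases from mRpL55. Mitofilin, which shapes the inner membrane, lay 192 bases from mRpL35. These were picked for their mitochondrial role, and the share of neighbours with such a role was not counted. Others were CtIP, 41 bases from mRpL15, FoxK, 64 bases from mRpL2, and Cdk1, 400 bases from mRpS7. Exons of 42 members (57.5%) overlapped exons on the other strand, against 38.6% of other genes. The median overlap was 51.5 bases, and 6 exceeded 200 bases, among them mRpS9 with ArgRS-m (325 bases) and mRpS24 with TBC1d7 (332 bases). Whether counting used strand is not given in the sources used here, so reads of these pairs may not be told apart. On the same strand, mRpL13 shared 236 exonic bases with CG10602 and mRpS14 shared 30 with CG32533.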

How the data were processed

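Each deposited table lists estimated counts, CPM and TPM by gene, per the file headers. Of tools, cutadapt 3.4, Bowtie2 and STAR appear in the submitters' processing notes, without roles. Counting settings were not given in the sources used here. Between 7.19% and 9.38% of the deposited estimated counts were fractional, and 14 members had a fractional value in at least 1 library. Dividing each deposited estimated count by its library total gave the deposited CPM. The deposited TPM was used for levels, for the overlap of groups in some members and for a ratio of the subunits, but for no test.

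Rounded counts went into edgeR 4.0.16 (R 4.3.3). There, filterByExpr left 8302 genes, TMM scaled the libraries, and a quasi-likelihood test compared dsFib with dsLacZ with Benjamini-Hochberg adjustment over all 8302 genes at 0.05. CPM values of genes in the text are TMM-scaled, except for markers, which are as deposited. Alternatives used DESeq2 1.42.0, limma 3.58.1, other scalings and filters, a replicate block, and each library left out. The procedure was also run on simulated counts as a check of the code, and how many true changes it recovers is not given here. Gene structure came from the Ensembl 115 annotation, which held all 73 members.

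Named in each subunit were the 5 members with the smallest p, the 3 largest changes in each direction, the 3 highest and the 2 lowest in TPM, any untested member, and up to 3 genes with the smallest p of each pathway list. Members without overlap between groups, structural groups of members, mRpS18A, mRpS18B and gene neighbours were named after their values were seen. Members and lists were chosen with earlier results of these data known.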

Additional observations from a re-analysis of the deposited data

How the results depend on the processing

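Under each of the 14 alternatives 0 members of either subunit passed the adjusted threshold. The count of all genes called, 75 (44 higher in dsFib), was 31 with total counts alone (5 higher), 320 with DESeq2, 283 with no filter on low counts and 2 to 310 with 1 library left out (310 without dsLacZ replicate 2, 113 without dsLacZ replicate 1, 2 to 7 without any other). Called genes of the mitochondrial expression lists, 0, were 1 with total counts, 2 with DESeq2, 3 with no filter and 0 to 2 with 1 library left out. Called cytosolic ribosomal protein genes, 1, were 0 with total counts, 14 with DESeq2, 2 with limma-voom, 9 with no filter and 0 to 7 with 1 library left out. The median log2 fold change of the large subunit ran from -0.026 to 0.048 and that of the small subunit from -0.039 to 0.083 with 1 library left out. The cause of these moves was not tested.

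Of 350 values of the 25 named members under alternatives, 339 kept their direction and their side of the threshold and 11 changed sign, all of them small estimates. With total counts alone mRpS5 was at -0.015. The other 10 came from leaving out 1 library, where log2 fold changes ran from -0.236 to 0.016 for mRpL10, -0.315 to 0.233 for mRpL35, -0.154 to 0.030 for mRpS35, -0.026 to 0.203 for mRpS22, -0.082 to 0.109 for mRpS5 and -0.180 to 0.122 for mRpS31.

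Same-numbered libraries did not deviate together, with correlations of -0.04, -0.21 and -0.11 for numbers 1, 2 and 3. Differently numbered libraries ran from -0.15 to 0.21. So few values cannot show whether the libraries were prepared in pairs. With the replicate number as a block, 1 gene was called in all, 0 members and 0 cytosolic ribosomal protein genes, and the log2 fold change of Fib was 2.21 (edgeR adjusted p = 0.0602). Of the 8 members with intervals past 2-fold, 6 averaged under 100 counts per library. With mRpS18A and mRpS30 counted in the large subunit, an alternative chosen after seeing the data, both medians were as before.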

Other observations

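The platform gene mRpS11, which had the smallest p of the members, starts 57 bases from Ns1, a gene for a nucleolar GTP-binding protein transcribed the other way, and Ns1 had a log2 fold change of 0.13 between dsFib and dsLacZ (edgeR adjusted p = 0.538). Of the 45 head-to-head pairs in which both genes were tested, the member and its neighbour had values of the same sign in 18. None of the neighbours passed the edgeR test, and their median log2 fold change was -0.03. Across these 45 pairs Pearson's r was -0.10, given as a description, since all values come from the same 6 libraries. The neighbour of mRpS17 was Nop60B, which encodes the enzyme that makes pseudouridine with box H/ACA snoRNAs, 436 bases away, with a log2 fold change of 0.04, and that of mRpS7 was the cell cycle kinase gene Cdk1, 400 bases away, at -0.56 (edgeR adjusted p = 0.195).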
